A study of Homo sapiens with 28 samples.

Results

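The carnitine shuttle carries long-chain fatty acids into mitochondria, where they are oxidised. CPT1 on the outer mitochondrial membrane joins the fatty acyl chain to carnitine and is the controlled step, because malonyl-CoA, the first committed intermediate of fatty acid synthesis, inhibits it. The carrier SLC25A20 then exchanges acylcarnitine for free carnitine across the inner membrane, and CPT2 on its inner face makes acyl-CoA again. CPT1A is the liver form of CPT1, CPT1B the muscle form and CPT1C a form known from brain. In liver, CPT1A is known as a target of the fatty acid receptor PPAR alpha.

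The 5 genes were followed in 28 RNA-seq libraries of HepG2 cells, among 63139 genes counted. They were chosen by name, with CPT1A put forward for the way its level ran over the 7 groups of these same libraries. Its levels and differences are therefore given as a description with no test. The count of each gene was at hand in every library, and CPT1A, CPT1B, CPT2 and SLC25A20 were among the 18849 genes with enough counts to be tested. CPT1C was not.

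HepG2 is an established human liver cancer line, described as hepatocytes in the labels, and was kept at no more than 17 passages. All cells went without serum for 24 h and were then exposed for 24 h. The groups were TCDD at 100 nM, PFOS at 10 µM, BPA (bisphenol A) at 75 µM and TBTCl (tributyltin chloride) at 0.1 µM, all in DMSO at up to 0.1% of the medium, with DMSO alone as their control. CdCl2 (cadmium chloride) at 0.5 µM was set against water (H2O). TCDD is a dioxin that activates the aryl hydrocarbon receptor, and PFOS is a perfluorinated surfactant. Each group had 4 libraries. Per the labels they come from 4 independent experiments, each run in technical triplicate, with a single line, dose and time.

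Each library held 28.9 M to 66 M counts, with a median of 46.5 M. All 9 hepatocyte markers were expressed, with ALB at 5946 CPM or more in every library. CPM here are counts scaled to library size with edgeR's TMM factors. The names TCDD and PFOS were swapped between these groups of libraries by the submitters, in a later note to the series. The summed level of CYP1A1, CYP1B1 and AHRR, 3 targets of the receptor for dioxin, was 2849 to 6418 CPM in the libraries labelled TCDD and 1.67 to 16.2 CPM in those labelled PFOS, against 2.87 to 17.1 CPM in DMSO. On the third principal component, TBTCl replicate 4 lay apart at 101, with the next library at 32.3, and values of the shuttle genes in TBTCl that it moves are given with and without it. Cell number and RNA per cell cannot be told apart in these bulk libraries.

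The genes are spread over 5 chromosomes (GRCh38, GENCODE release 29). CPT1A (ENSG00000110090) lies at chr11:68754620-68844410 on the minus strand and CPT2 (ENSG00000157184) at chr1:53196429-53214197 on the plus strand. SLC25A20 (ENSG00000178537) lies at chr3:48856931-48898993 on the minus strand. CPT1B (ENSG00000205560) lies at chr22:50568861-50578465 on the minus strand and CPT1C (ENSG00000169169) at chr19:49690898-49713731 on the plus strand. CPT1B shares 2722 bases of exon with the readthrough gene CHKB-CPT1B on the same strand, so its reads cannot be assigned to a single gene with certainty. CPT2 shares 1151 bases of exon with the antisense gene AL606760.2 and 99 with C1orf123, both on the opposite strand. The libraries were directional, but nothing here states whether reads were counted by strand.

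The promoters of the 3 expressed genes are shown for reference beside their levels. Each runs from 250 bases before to 50 after the RefSeq start (GRCh38.p14), 5′ to 3′ on the strand of the gene. Capitals mark the core of the aryl hydrocarbon receptor element, GCGTG, and the GC box, GGGCGG, on either strand (as CACGC and CCGCCC on the other). They lie at chr11:68844228-68844527 (CPT1A), chr1:53196574-53196873 (CPT2) and chr3:48898833-48899132 (SLC25A20).
CPT1A: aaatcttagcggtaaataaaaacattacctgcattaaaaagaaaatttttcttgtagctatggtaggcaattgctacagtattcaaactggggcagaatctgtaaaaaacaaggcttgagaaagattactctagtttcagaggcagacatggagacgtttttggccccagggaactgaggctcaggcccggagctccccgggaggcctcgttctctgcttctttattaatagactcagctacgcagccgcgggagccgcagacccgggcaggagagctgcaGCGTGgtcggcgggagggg
CPT2: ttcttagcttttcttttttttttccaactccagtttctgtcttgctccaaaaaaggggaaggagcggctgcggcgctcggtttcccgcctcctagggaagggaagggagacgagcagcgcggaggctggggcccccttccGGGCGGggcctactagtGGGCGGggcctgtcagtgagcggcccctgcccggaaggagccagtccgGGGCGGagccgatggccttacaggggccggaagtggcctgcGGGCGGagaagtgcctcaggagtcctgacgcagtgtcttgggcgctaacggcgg
SLC25A20: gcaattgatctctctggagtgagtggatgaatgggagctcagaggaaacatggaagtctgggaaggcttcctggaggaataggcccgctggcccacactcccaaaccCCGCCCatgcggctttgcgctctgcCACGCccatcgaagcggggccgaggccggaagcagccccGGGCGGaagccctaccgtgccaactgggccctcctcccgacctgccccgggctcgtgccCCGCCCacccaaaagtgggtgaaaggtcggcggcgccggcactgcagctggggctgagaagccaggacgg

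The window of CPT1A held 1 GCGTG, which began 31 bases after the start, and no GC box. CPT2 held 4 GC boxes and no GCGTG, and SLC25A20 held 3 GC boxes and 1 GCGTG on the other strand. The nuclear receptor half-site AGGTCA was searched on both strands too and was in none of the 3 windows. Of 35116 RefSeq promoter windows of this length, 36.5% held GCGTG, 45.0% GGGCGG and 13.8% AGGTCA, on either strand. No motif match overlapped another in the 3 windows. These are letter matches only, and say nothing of binding.

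CPT1A was highest in BPA and TCDD, lower in TBTCl, and lower again in PFOS and CdCl2, with both vehicles at the bottom. The 4 TCDD libraries held 141.1, 132.0, 122.5 and 125.4 CPM, and the 4 BPA libraries 119.1, 147.7, 130.1 and 145.2 CPM. TBTCl gave 75.9, 79.0, 91.5 and 98.6 CPM, and PFOS 39.4, 56.3, 34.3 and 40.6 CPM. Their control, DMSO, gave 27.8, 29.3, 30.7 and 28.5 CPM, the narrowest spread of the 7 groups. Every TCDD, BPA, TBTCl and PFOS library thus lay above every DMSO library. CdCl2 libraries held 41.0, 51.4, 40.8 and 36.8 CPM, against 25.0, 37.0, 17.8 and 34.6 CPM in H2O, and these overlapped, the lowest of CdCl2 being just below the highest of H2O.

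**Figure D1:**
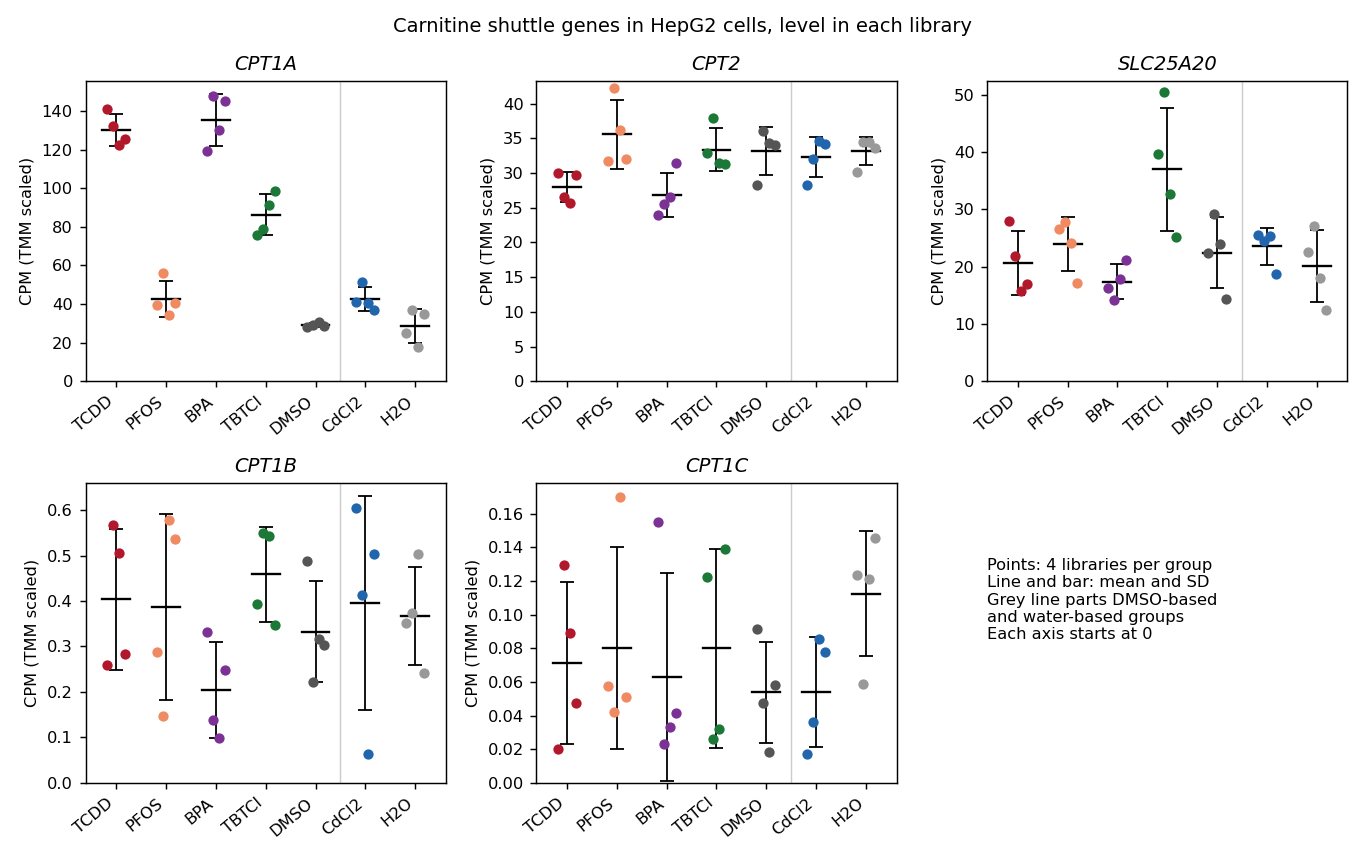
Level of the 5 shuttle genes in each library, as TMM-scaled CPM on axes that start at 0 and differ between genes, with points for the 4 libraries of a group and lines and bars for the mean and SD. CPT1A stands at 122.5 to 141.1 CPM in TCDD and 119.1 to 147.7 CPM in BPA, against 27.8 to 30.7 CPM in DMSO, while CPT2 and SLC25A20 of TCDD and DMSO overlap.

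As means, CPT1A stood at 135.5 ± 13.5 CPM in BPA, 130.2 ± 8.28 CPM in TCDD, 86.3 ± 10.6 CPM in TBTCl, 42.7 ± 9.50 CPM in PFOS, 42.5 ± 6.27 CPM in CdCl2, 29.1 ± 1.25 CPM in DMSO and 28.6 ± 8.87 CPM in H2O (SD, n = 4 each). Read down this order, BPA and TCDD overlapped, and with upper-quartile scaling they changed places at 126.6 and 132.4 CPM. TCDD and TBTCl did not overlap, nor did TBTCl and PFOS. PFOS and CdCl2 overlapped, CdCl2 and DMSO did not, and DMSO and H2O did. Among all tested genes, 8.23% had every TCDD library above every TBTCl library.

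Against DMSO, CPT1A differed by 2.16 ± 0.17 on the log2 scale in TCDD (SE), a 4.48-fold higher level, and by 2.22 ± 0.17 in BPA, 4.66-fold. TBTCl differed from DMSO by 1.57 ± 0.17, or 2.96-fold, and by 1.5 ± 0.18 without TBTCl replicate 4, where its mean was 82.1 ± 8.25 CPM (SD, n = 3). PFOS differed from DMSO by 0.55 ± 0.17, or 1.47-fold. CdCl2 differed from H2O by 0.57 ± 0.17, or 1.49-fold, and DMSO from H2O by 0.03 ± 0.17. The size of the difference was about the same in TCDD and BPA. Set directly against each other, TCDD minus BPA was -0.06 ± 0.17 on the log2 scale, while TCDD minus TBTCl was 0.60 ± 0.17 and TCDD minus PFOS 1.61 ± 0.17. These 4 compounds share the DMSO libraries, so their differences from DMSO are not independent of each other.

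Libraries that did not overlap, with the compound higher, were found for 9.38% of tested genes in TCDD, 20.1% in BPA, 2.26% in TBTCl, 1.15% in PFOS and 1.28% in CdCl2. Of 10601 tested genes with a mean of at least 5 CPM, CPT1A had the 7th largest log2 difference from its vehicle in TBTCl, the 16th in PFOS, the 45th in BPA, the 48th in TCDD and the 68th in CdCl2. Between DMSO and H2O it was number 3443. CPT1A was chosen for this pattern, and the ranks are given only to place it.

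**Figure D2:**
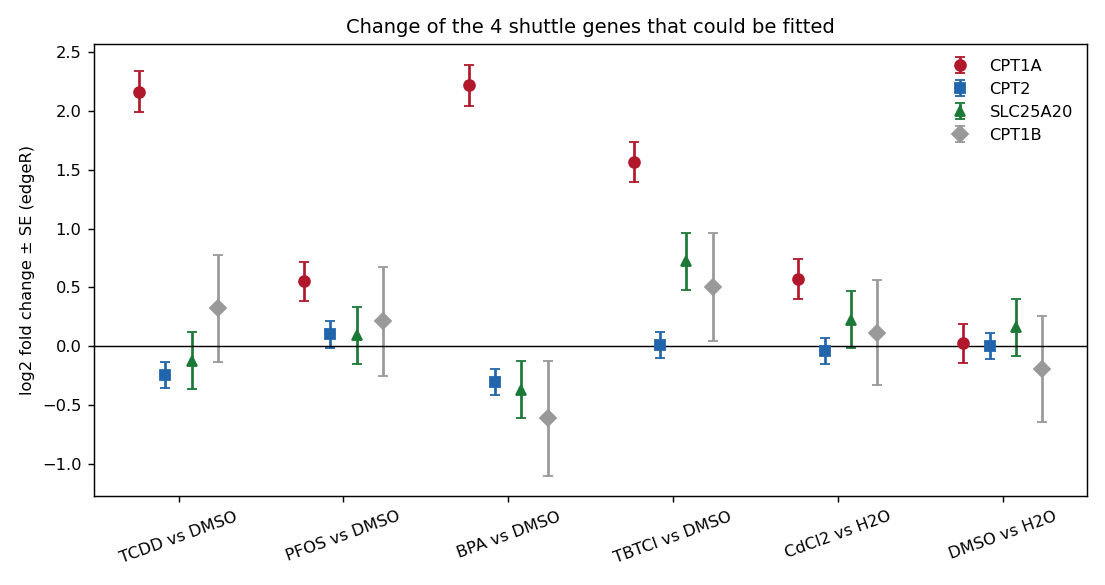
Log2 difference from the vehicle with its SE (edgeR, 28 libraries) for the 4 shuttle genes that could be fitted, in 6 comparisons. CPT1A reads 2.16 in TCDD, 2.22 in BPA and 1.57 in TBTCl, while CPT2 lies between -0.30 and 0.10 throughout.

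CPT2, the enzyme that completes the shuttle, stayed within a narrow band. Its lowest library held 23.9 CPM and its highest 42.3 CPM over all 7 groups. In BPA it fell slightly, to 26.9 ± 3.21 CPM, against 33.2 ± 3.41 CPM in DMSO. The 4 BPA libraries held 23.9, 25.6, 26.5 and 31.4 CPM, and the DMSO libraries 28.2, 36.1, 34.3 and 34.1 CPM, so that the highest BPA library lay above the lowest DMSO library. The log2 change was -0.30 ± 0.11 (edgeR adjusted p = 0.0357). The call was lost without the filter on low counts (adjusted p = 0.147) and when BPA replicate 1, 2 or 3 or DMSO replicate 2, 3 or 4 was left out (adjusted p up to 0.108). In BPA, 35.0% of all tested genes passed this test, and CPT2 was the single one of the 3 shuttle genes tested there that did.

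The antisense gene AL606760.2, which overlaps CPT2, also fell in BPA, to 0.409 ± 0.204 CPM against 1.09 ± 0.240 CPM in DMSO (log2 change -1.45 ± 0.37, edgeR adjusted p = 0.00348). C1orf123, which shares the end of CPT2, rose there, to 28.0 ± 1.83 CPM against 22.1 ± 1.85 CPM in DMSO (0.34 ± 0.13, edgeR adjusted p = 0.0494). The part of shared reads in the change of CPT2 was not tested.

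TCDD gave CPT2 levels of 30.0, 26.6, 25.6 and 29.7 CPM, against the DMSO values above. The means were 28.0 ± 2.20 CPM in TCDD and 33.2 ± 3.41 CPM in DMSO, and the difference of -0.25 ± 0.11 did not pass (edgeR adjusted p = 0.201). CPT2 was lower in TCDD than in PFOS, whose libraries held 31.7, 42.3, 36.3 and 32.1 CPM and did not overlap those of TCDD, as was so, with TCDD lower, for 7.56% of tested genes. That log2 difference was -0.35 ± 0.11 (edgeR adjusted p = 0.0398), among 13.0% of tested genes called. It was lost in a fit of the 8 libraries alone (adjusted p = 0.0891), with upper-quartile factors, without the filter, and when PFOS replicate 2 or 3 or TCDD replicate 2 or 3 was left out.

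Between PFOS and DMSO, TBTCl and DMSO, CdCl2 and H2O, and DMSO and H2O, no difference in CPT2 passed. The largest of these 4 was 0.10 ± 0.11 in PFOS (edgeR adjusted p = 1.00). CPT2 averaged 33.4 ± 3.13 CPM in TBTCl, 32.3 ± 2.89 CPM in CdCl2 and 33.2 ± 2.05 CPM in H2O.

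SLC25A20, the inner membrane carrier, had its highest mean in TBTCl, at 37.0 ± 10.7 CPM, against 22.5 ± 6.17 CPM in DMSO. The TBTCl libraries 1 to 4 held 39.6, 50.5, 32.7 and 25.2 CPM, and the DMSO libraries 1 to 4 held 22.4, 29.2, 24.0 and 14.3 CPM. Each TBTCl library lay above the DMSO library of the same number, but the groups overlapped, and the log2 difference of 0.72 ± 0.24 did not pass (edgeR adjusted p = 0.165). Without TBTCl replicate 4 the difference was 0.87 (edgeR adjusted p = 0.311). In TBTCl, 0.143% of all tested genes passed, or 27, a count that ranged from 5 without DMSO replicate 3 to 160 without TBTCl replicate 2. It was 6 or 7 without DMSO replicate 1, 2 or 4, 55 without TBTCl replicate 1, 9 without TBTCl replicate 4, and 250 by DESeq2.

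Set directly against TBTCl, SLC25A20 was lower in TCDD, by -0.84 ± 0.24 on the log2 scale (edgeR adjusted p = 0.0191, among 12.8% of tested genes called). TCDD libraries held 27.9, 21.9, 15.8 and 17.0 CPM, and the highest of these lay above the lowest of TBTCl. The difference was -1.0 ± 0.24 without TBTCl replicate 4 (edgeR adjusted p = 0.00671). The call was lost in a fit of the 8 libraries alone (adjusted p = 0.0781) and without TBTCl replicate 2, TCDD replicate 3 or TCDD replicate 4 (adjusted p up to 0.0741).

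The other means of SLC25A20 were 20.6 ± 5.52 CPM in TCDD, 23.9 ± 4.72 CPM in PFOS and 17.4 ± 2.99 CPM in BPA, against 22.5 ± 6.17 CPM in DMSO, and 23.5 ± 3.21 CPM in CdCl2, against 20.1 ± 6.29 CPM in H2O. None of these differences passed, the largest being -0.37 ± 0.24 in BPA (edgeR adjusted p = 0.244). Much of the spread followed the replicate number. Replicate 4 had the lowest SLC25A20 of its group in 5 of 7 groups, and replicate 2 the highest in 4 of 7. Whether equal numbers stand for 1 experiment is not stated in the labels.

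CPT1B and CPT1C were close to silent. CPT1B had 3 to 35 counts per library, and its group means ran from 0.204 CPM in BPA to 0.459 CPM in TBTCl. No difference in CPT1B passed, the largest from a vehicle being -0.61 ± 0.49 in BPA (edgeR adjusted p = 0.352). CPT1C had 1 to 8 counts per library, or 0.0173 to 0.170 CPM, where 3 counts are 0.0435 to 0.104 CPM, a floor that covers counting error only. Changes of CPT1C were not detectable at this depth.

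Among the 8 markers of muscle, MYOG was at 0 in all 28 libraries and MYH2 in 27. ACTA1 ran from 2.37 to 23.9 CPM and CKM from 0.816 to 4.87 CPM, and the summed level of the 8 markers was 4.24 to 26.3 CPM. TNNT3 averaged 1.34 CPM in TCDD, against 0.0119 CPM in DMSO. Of 5 tested muscle markers, 1 rose in TCDD and 1 fell in BPA. Of 6 tested markers of leukocytes, endothelium and stroma, 1 rose and 1 fell in TCDD and 1 fell in BPA. Over all tested genes, 6.45% rose and 2.80% fell in TCDD, and 17.6% fell in BPA. Among 8 markers of neurons, 7 did not pass 0.341 CPM in any library, and SYP ran from 5.78 to 72.5 CPM.

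Of the 3 shuttle genes other than CPT1A that could be tested, none passed against the vehicle in TCDD, PFOS, TBTCl or CdCl2 by edgeR, nor between DMSO and H2O. At an unadjusted p under 0.05 there was 1 each in TCDD (CPT2) and TBTCl (SLC25A20) and 0 in PFOS, CdCl2 and the vehicles, and DESeq2 called 0 in each. Of all tested genes, 21.0% had such a p in TCDD and 15.6% in TBTCl. Over all tested genes, 9.25% passed in TCDD, 0.0159% in PFOS, 0.0212% in CdCl2 and 0.00% between the vehicles. With the replicate number as a block, the genes passing were 84 in PFOS, against 3 without it, 179 in TBTCl, against 27, and 28 in CdCl2, against 4. With so few genes in the shuttle, these counts say little beyond the values themselves.

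Levels of different genes were compared as counts per kilobase of exon, scaled to a sum of 1000000 over all genes of a library. On this scale CPT1A made up nearly all of the CPT1 mRNA, with 99.4 ± 0.240% of the summed level of CPT1A, CPT1B and CPT1C in TCDD, 99.7 ± 0.203% in BPA and 98.0 ± 0.741% in DMSO (SD, n = 4). H2O had the lowest share, 97.2 ± 1.59%. Per length, SLC25A20 stood at 33.1 ± 8.40 in TCDD and 38.9 ± 9.97 in DMSO, and CPT2 at 8.57 ± 1.08 in TCDD and 11.0 ± 1.58 in DMSO. CPT1A stood at 63.3 ± 4.67 in TCDD and 15.3 ± 1.32 in DMSO, above SLC25A20 in TCDD and below it in DMSO.

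The ratio of the first to the last enzyme had its highest means in BPA, TCDD and TBTCl, as CPT1A did, while CdCl2 stood above PFOS in the ratio and below it in CPT1A. The length-scaled level of CPT1A over that of CPT2 was 7.43 ± 0.504 in TCDD, 1.90 ± 0.272 in PFOS, 8.07 ± 0.786 in BPA and 4.16 ± 0.800 in TBTCl, against 1.41 ± 0.123 in DMSO. It was 2.11 ± 0.388 in CdCl2, against 1.37 ± 0.404 in H2O. The lowest ratio in a TCDD or BPA library was 6.72, and the highest in a DMSO or H2O library was 1.71. Its size depends on the length used: with the longest transcript of each gene it was 4.05 in TCDD and 4.40 in BPA, against 0.766 in DMSO, so whether CPT1A or CPT2 is higher in DMSO cannot be read from these data. SLC25A20 over CPT2 was 5.78 ± 1.19 in TBTCl, against 3.59 ± 0.951 in DMSO, and the other 5 groups had means of 3.21 to 3.89. Without TBTCl replicate 4, CPT1A over CPT2 was 3.87 ± 0.683 and SLC25A20 over CPT2 6.29 ± 0.765 in TBTCl (SD, n = 3).

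**Figure D3:**
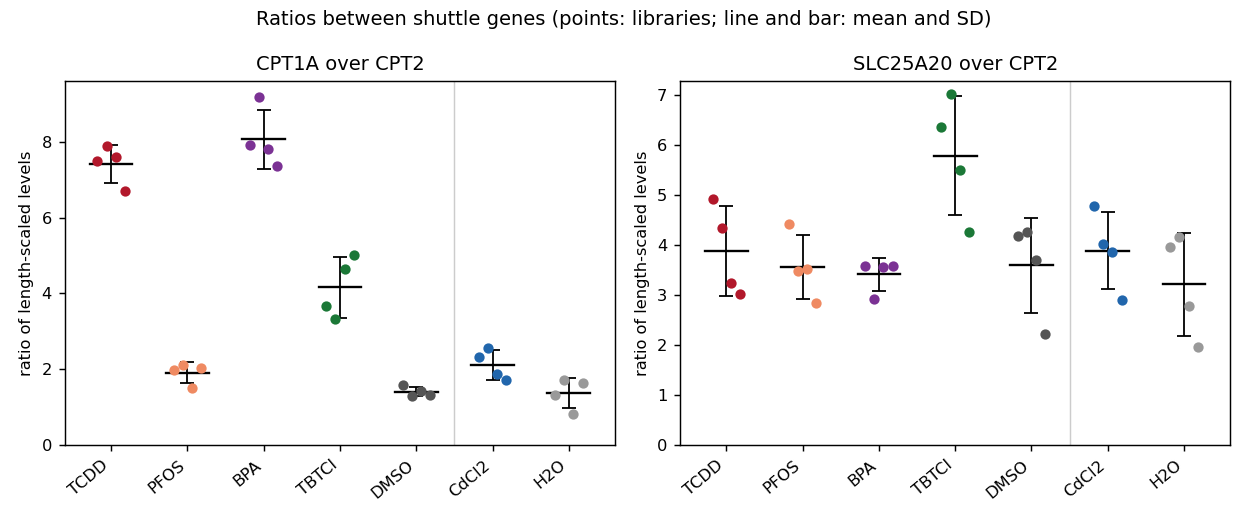
Ratios of length-scaled levels in each library, CPT1A over CPT2 on the left and SLC25A20 over CPT2 on the right, with points for libraries and lines and bars for the mean and SD. CPT1A over CPT2 averages 7.43 in TCDD and 8.07 in BPA, against 1.41 in DMSO, and SLC25A20 over CPT2 is highest in TBTCl at 5.78.

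On one side of CPT1A the nearest gene is TESMIN, 3056 bases away, which had 3 to 28 counts per library and passed in none of the 6 comparisons with a vehicle. On the other, MRPL21, a mitochondrial ribosomal protein gene 46866 bases away, held 34.2 ± 2.64 CPM in TCDD and 34.3 ± 2.15 CPM in BPA, against 29.9 ± 2.37 CPM in DMSO (edgeR adjusted p = 0.494 and 0.312).

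The genes around the shuttle were taken as 9 lists of 99 genes, of which 91 were tested. Together they had 11 genes up and 5 down in TCDD and 25 up and 16 down in BPA. In TBTCl 1 rose, and none passed in PFOS, CdCl2 or between the vehicles. At an unadjusted p under 0.05 there were 2 in PFOS, 7 in CdCl2 and 0 between the vehicles, where 5.53%, 4.99% and 2.29% of all tested genes had such a p, and DESeq2 called 0 list genes in each of these. All tested genes had 6.45% up and 2.80% down in TCDD and 17.3% up and 17.6% down in BPA, and 0.106% up in TBTCl. Without TCDD replicate 2, 7 list genes rose in TCDD, and without BPA replicate 1 or 2, 10 fell in BPA. With the replicate number as a block, 32 list genes rose and 17 fell in BPA, and of all genes 4043 rose and 4041 fell. In TBTCl, 6 list genes rose with the block, and 2 without TBTCl replicate 4. Across scalings the split in BPA moved: with upper-quartile factors 19 list genes rose and 21 fell, and of all genes 2239 rose and 4345 fell, against 3268 and 3320 with TMM factors, as the median of all genes shifted to -0.15 on the log2 scale, against -0.02.

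**Figure D4:**
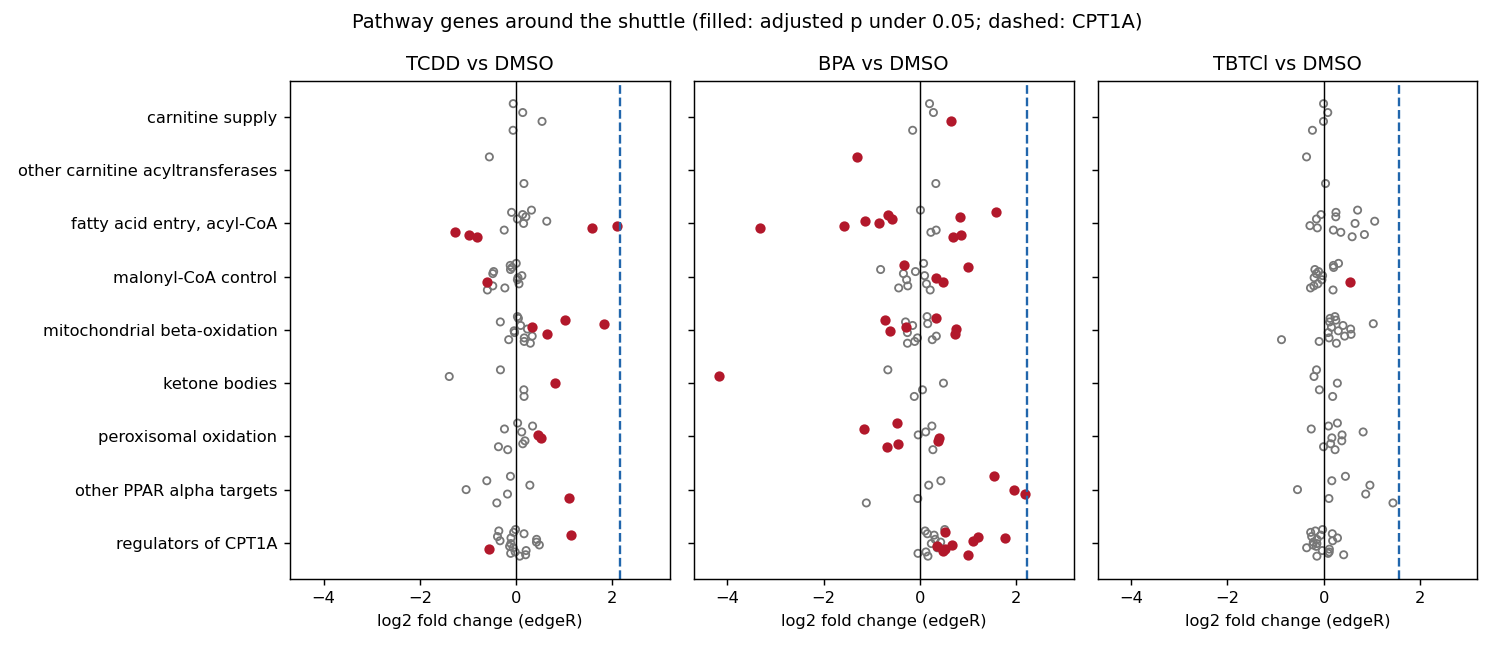
Log2 difference from DMSO (edgeR) of every tested gene of the 9 lists in TCDD, BPA and TBTCl, with filled points for an adjusted p under 0.05 and a dashed line at the value of CPT1A. TCDD has 11 list genes up and 5 down, BPA 25 up and 16 down, and TBTCl 1 up.

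Of 4 tested genes of carnitine supply and 2 other carnitine acyltransferases, 1 of each passed in BPA, where 35.0% of all tested genes did. SLC22A5, the main carnitine importer, averaged 13.8 ± 2.79 CPM in TCDD and 15.2 ± 1.61 CPM in BPA, against 12.5 ± 1.80 CPM in DMSO (edgeR adjusted p = 0.743 and 0.256). The related transporter SLC22A4 rose in BPA (log2 change 0.66 ± 0.26, edgeR adjusted p = 0.0475). CROT, which makes acylcarnitines in peroxisomes, fell in BPA to 4.59 ± 0.229 CPM, against 11.4 ± 3.69 CPM in DMSO (log2 change -1.31 ± 0.30, edgeR adjusted p = 0.00160).

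Entry of fatty acids and their activation to acyl-CoA moved in both directions, and differently in TCDD and BPA, between which 38.3% of all tested genes differed. Of 13 tested genes, 2 rose and 3 fell in TCDD, and 4 rose and 6 fell in BPA. Over all tested genes, 6.45% rose and 2.80% fell in TCDD, and 17.3% rose and 17.6% fell in BPA. CD36, a fatty acid uptake receptor, rose in TCDD to 22.7 ± 4.85 CPM and fell in BPA to 1.78 ± 0.477 CPM, against 5.28 ± 2.11 CPM in DMSO (log2 changes 2.11 ± 0.28 and -1.57 ± 0.29). ACSL6, an acyl-CoA synthetase, did likewise, at 9.14 ± 1.01 CPM in TCDD and 0.306 ± 0.147 CPM in BPA, against 3.04 ± 0.315 CPM in DMSO. Set directly against each other, TCDD minus BPA was 3.67 ± 0.31 for CD36 (edgeR adjusted p = 1.14e-09) and 4.91 ± 0.29 for ACSL6 (edgeR adjusted p = 4.91e-12). ACSL3 went the other way, at 227.5 ± 67.4 CPM in TCDD and 803.2 ± 88.3 CPM in BPA, against 445.9 ± 104.8 CPM in DMSO, and TCDD minus BPA was -1.82 ± 0.26 (edgeR adjusted p = 5.85e-06). ACSL4 fell in TCDD (log2 change -1.27 ± 0.19, edgeR adjusted p = 3.85e-05), and the transporter SLC27A4 rose in BPA to 126.6 ± 10.2 CPM, against 42.4 ± 4.58 CPM in DMSO (log2 change 1.58 ± 0.11, edgeR adjusted p = 1.60e-10).

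Over all tested genes, 2.80% fell in TCDD, 17.3% rose and 17.6% fell in BPA, and 0.106% rose in TBTCl. Of the 14 tested genes that set malonyl-CoA, 1 fell in TCDD, 3 rose and 1 fell in BPA, and 1 rose in TBTCl. MID1IP1, which activates acetyl-CoA carboxylase, was in all 3 counts, at 72.0 ± 8.76 CPM in TCDD, 151.8 ± 12.5 CPM in BPA and 158.4 ± 12.2 CPM in TBTCl, against 108.7 ± 14.6 CPM in DMSO. Its log2 changes were -0.60 ± 0.11 in TCDD (edgeR adjusted p = 0.000561), 0.48 ± 0.11 in BPA (adjusted p = 0.00181) and 0.54 ± 0.11 in TBTCl (adjusted p = 0.0421, and 0.0493 without TBTCl replicate 4). The call in TBTCl was lost in a fit of the 8 libraries alone, with library size alone, with upper-quartile factors and with H2O as the control. Leaving out some single libraries lost it too. It was kept by DESeq2 (adjusted p = 0.00142) and with the replicate block (edgeR adjusted p = 0.00151). The acetyl-CoA carboxylases ACACA and ACACB did not pass against DMSO in TCDD or BPA. ACACA averaged 96.1 ± 22.4 CPM in TCDD and 168.7 ± 18.2 CPM in BPA, against 145.3 ± 14.0 CPM in DMSO, and ACACB 28.1 ± 4.05 CPM in TCDD and 24.3 ± 4.37 CPM in BPA, against 33.0 ± 5.38 CPM in DMSO (edgeR adjusted p from 0.0805 to 0.552). Set directly against each other, ACACA was lower in TCDD than in BPA, with a log2 difference of -0.81 ± 0.24 (edgeR adjusted p = 0.00988, among 38.3% of tested genes called). It was also lower in TCDD than in TBTCl (-0.79 ± 0.24, edgeR adjusted p = 0.0293, among 12.8% called). TBTCl averaged 166.5 ± 73.8 CPM for ACACA, and its libraries, at 70.8 to 241.2 CPM, overlapped those of TCDD, at 68.3 to 115.9 CPM. MLYCD, which breaks down malonyl-CoA, held 5.17 ± 0.863 CPM in TCDD and 4.20 ± 0.359 CPM in BPA, against 5.08 ± 0.650 CPM in DMSO (edgeR adjusted p = 0.963 and 0.348). In BPA, PRKAG2, a subunit of AMP-activated protein kinase, rose (log2 change 1.00 ± 0.28) and SLC25A1, the mitochondrial citrate carrier, fell (-0.33 ± 0.11).

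In mitochondrial beta-oxidation, 4 of 16 tested genes rose and none fell in TCDD, while 3 rose and 3 fell in BPA. The shares over all tested genes were 6.45% up and 2.80% down in TCDD, and 17.3% up and 17.6% down in BPA. ETFB, which passes electrons from the acyl-CoA dehydrogenases, stood at 683.9 ± 133.7 CPM in TCDD, against 193.0 ± 29.5 CPM in DMSO (log2 change 1.83 ± 0.34, edgeR adjusted p = 0.000408). HADH, the short-chain hydroxyacyl-CoA dehydrogenase, rose in TCDD and fell in BPA, at 99.4 ± 12.7 CPM in TCDD and 29.7 ± 3.61 CPM in BPA, against 49.4 ± 5.71 CPM in DMSO, and TCDD minus BPA was 1.74 ± 0.14 (edgeR adjusted p = 7.02e-10). ACADVL, which starts the oxidation of the chains that the shuttle delivers, rose in both, to 332.5 ± 43.0 CPM in TCDD and 356.2 ± 9.94 CPM in BPA, against 213.4 ± 20.0 CPM in DMSO (log2 changes 0.64 ± 0.14 and 0.74 ± 0.14). In BPA, ECI1, an enoyl-CoA isomerase, rose by 0.75 ± 0.18 and ECHS1, an enoyl-CoA hydratase, fell by 0.61 ± 0.12.

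Ketone body synthesis, which uses the acetyl-CoA from oxidation, had 1 of 5 genes up in TCDD and 1 down in BPA. Over all tested genes, 6.45% rose in TCDD and 17.6% fell in BPA.

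Of 10 tested genes of peroxisomal oxidation, 2 rose in TCDD, and 2 rose and 4 fell in BPA. The shares over all tested genes were 6.45% up in TCDD, and 17.3% up and 17.6% down in BPA. DECR2 rose in TCDD (log2 change 0.46 ± 0.13) and ACOT8 in BPA (0.37 ± 0.13). EHHADH and ABCD3 fell in BPA (-1.15 ± 0.16 and -0.69 ± 0.16).

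Of the other known targets of PPAR alpha, 1 of 7 tested rose in TCDD and 3 in BPA, against 6.45% and 17.3% of all tested genes. CREB3L3, a liver transcription factor, rose in TCDD to 53.1 ± 16.3 CPM, against 24.9 ± 11.0 CPM in DMSO (log2 change 1.09 ± 0.35, edgeR adjusted p = 0.0463). In BPA, FGF21 and G0S2 rose (2.20 ± 0.46 and 1.96 ± 0.47), both at levels under 1 CPM. PLIN2, a lipid droplet coat protein, did not pass against the vehicle in any group, and its mean was highest in TBTCl, at 849.0 ± 349.8 CPM, against 435.2 ± 64.8 CPM in DMSO (log2 difference 0.96 ± 0.27, edgeR adjusted p = 0.124). With the replicate block it was one of the 6 genes called there (log2 change 0.91 ± 0.21, adjusted p = 0.0392), as was ACADVL (0.56 ± 0.12, adjusted p = 0.0243). Without TBTCl replicate 4 and without the block, the log2 differences in TBTCl were 0.67 ± 0.27 for PLIN2 (edgeR adjusted p = 0.556) and 0.44 ± 0.14 for ACADVL (edgeR adjusted p = 0.368). ANGPTL4 varied widely within groups, with 1.21 to 20.2 CPM in TBTCl and 1.16 to 5.32 CPM in DMSO, and PDK4 had 0.149 CPM at most in any library and was not tested.

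Of 20 regulators of CPT1A transcription, 9 rose and none fell in BPA, against 17.3% up and 17.6% down over all tested genes. Their median there was 0.40 on the log2 scale, against -0.02 over all tested genes. PPARGC1A, a coactivator of PPAR alpha, rose in BPA to 56.0 ± 7.68 CPM, against 16.4 ± 2.93 CPM in DMSO (log2 change 1.77 ± 0.16, edgeR adjusted p = 1.03e-08), and PPARGC1B by 1.20 ± 0.35. In TCDD, PPARGC1A held 15.3 ± 1.23 CPM, and TCDD minus BPA was -1.88 ± 0.16 (edgeR adjusted p = 1.94e-09). TCDD had 1 regulator up and 1 down of 20, with a median of -0.03, against -0.01 over all tested genes. RXRA, the partner of PPAR alpha, rose in TCDD to 236.9 ± 36.7 CPM, against 107.3 ± 11.3 CPM in DMSO (log2 change 1.14 ± 0.13, edgeR adjusted p = 5.55e-07), and LPIN1 fell (-0.56 ± 0.14). PPARA itself did not pass in either, at 78.7 ± 11.4 CPM in TCDD and 79.3 ± 13.6 CPM in BPA, against 58.7 ± 14.0 CPM in DMSO (edgeR adjusted p = 0.215 and 0.0914).

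Other genes moved with the compounds beside these lists. In BPA, 3 of the 9 hepatocyte markers fell and 1 rose, where 17.6% of all tested genes fell and 17.3% rose. The summed level of the 9 markers was 26560 to 42190 CPM in BPA, against 39310 to 72310 CPM in DMSO. CYP1A1 rose in BPA too, to 241.9 ± 176.4 CPM, against 8.37 ± 6.54 CPM in DMSO. Their part in the results on BPA was not tested.

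Over the 7 group means, the 8 genes with a pattern most like that of CPT1A were OSGIN1, TSKU, IER5L, SERINC2, ADAP1, TYMP, MAFF and MASP1. Likeness was the root mean square difference of the log2 group means after each gene's own mean was taken off, over 10444 named genes with at least 5 CPM, and ran from 0.37 for OSGIN1 to 0.44 for MASP1. OSGIN1, a gene known for its response to oxidative stress, held 64.9 ± 23.0 CPM in TCDD, 25.0 ± 7.28 CPM in PFOS, 129.3 ± 34.9 CPM in BPA and 41.6 ± 12.6 CPM in TBTCl, against 22.4 ± 6.50 CPM in DMSO. It stood at 36.8 ± 11.1 CPM in CdCl2, against 22.4 ± 6.19 CPM in H2O. TSKU, a secreted proteoglycan, held 145.1 ± 33.4 CPM in TCDD and 192.3 ± 26.9 CPM in BPA, against 49.8 ± 3.81 CPM in DMSO. MAFF, a small MAF transcription factor, held 78.8 ± 25.4 CPM in TCDD and 65.8 ± 5.94 CPM in BPA, against 25.6 ± 6.10 CPM in DMSO.

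All 8 stood high in TCDD and BPA, which follows from their choice by likeness to CPT1A and is no separate result. In TBTCl, CPT1A differed from DMSO by 1.57 on the log2 scale, against 0.33 to 0.89 for these 8, and without TBTCl replicate 4 by 1.5, against 0.17 to 0.80. Only 3 of the 8 were again among the nearest 8 when single libraries replaced group means, and 5 when genes down to 1 CPM entered. The partners of CPT1A were far down this order, SLC25A20 at 7414 and CPT2 at 8640 of 10444. Among the nearer genes of the 9 lists were ACADVL at 162, ETFB at 232 and ESRRA, an estrogen-related receptor, at 372, picked after their ranks were seen. The TBTCl mean of ETFB, 395.1 ± 358.1 CPM, was raised by its highest library, at 931.8 CPM against a median of 222.6 CPM.

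**Figure D5:**
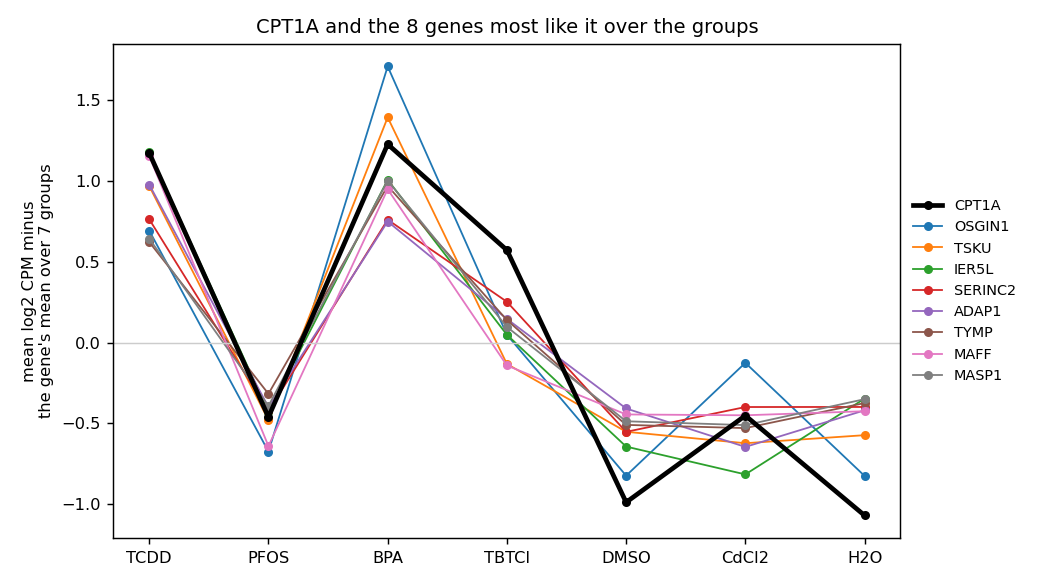
Mean log2 CPM of each group after the mean over the 7 groups is taken off, for CPT1A (black) and the 8 genes most like it. All stand high in TCDD and BPA, as follows from choosing them by likeness to CPT1A. CPT1A is the highest of them in TBTCl, with a difference from DMSO of 1.57 against 0.33 to 0.89.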

How the data were processed

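Whole-number read counts per gene were deposited by the authors for 28 libraries, and the submitters' processing notes name GRCh38, fastp, STAR, HTSeq and DESeq2. No version, annotation release or strand setting is stated. The last of 63140 gene rows was incomplete and left out. Symbols were at hand for 42291 genes, and 58126 were in GENCODE release 29. Counts were fitted with edgeR 4.0.16 in R 4.3.3 (quasi-likelihood test, TMM factors 0.861 to 1.07, filterByExpr with a minimum count of 10) in a single fit of 28 libraries and 7 group means, with 21 residual degrees of freedom and a biological coefficient of variation of 22%. The 18849 genes kept held 99.96% of counts. P-values were adjusted over all of them (Benjamini-Hochberg, called under 0.05), and the SE is the log2 change over the square root of F. The code was tested on simulated data.

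The members, lists and named genes were chosen with earlier results of these data known. Named genes were the members, the 2 called genes with the largest fold per list, direction and comparison, 11 fixed regulators and targets, the 8 genes most like CPT1A, and overlapping or neighbouring genes. Others are said to be picked afterwards. Some list genes are not reported here by name. Promoters come from RefSeq.

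Equal replicate numbers were checked as pairs by correlating deviations from group means. The correlations were 0.123 to 0.540 for CdCl2, 0.425 to 0.593 for PFOS, 0.173 to 0.269 for BPA, 0.249 to 0.528 for TBTCl and 0.181 to 0.627 for the vehicles, all over the minimum of 0.1, and -0.212 to 0.439 for TCDD, where they did not pair. Alternatives were DESeq2 1.42.0, other scalings, no filter, 8 libraries alone, the other vehicle, a replicate block and leaving out each library.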

Additional observations from a re-analysis of the deposited data

Results flagged for a closer look

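In 6 of the 112 groups of 4 libraries checked for the members and fixed genes, a single library lay far from the other 3 (by Dixon's criterion, which chance meets in about 1 of 20 groups). CPT1C stood at 0.170 CPM in PFOS replicate 3 (others 0.0421 to 0.0576 CPM) and at 0.155 CPM in BPA replicate 1 (others 0.0230 to 0.0413 CPM), both from single-digit counts. SLC25A20 was low in CdCl2 replicate 4, at 18.8 CPM (others 24.4 to 25.6 CPM). ACACB was high in H2O replicate 2, at 40.9 CPM (others 29.8 to 30.8 CPM), and PPARA in PFOS replicate 2, at 67.7 CPM (others 46.0 to 48.4 CPM). PDK4 was at 0.0359 CPM in CdCl2 replicate 2 and 0 in the other 3.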

How the results depend on the processing

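Of the values recomputed under an alternative, 802 kept their direction and side of the threshold or moved by less than the spread between replicates, 89 moved by more, 18 lost a call and none reversed a call. The cause was not tested. CPT1A in BPA was 2.10 with library size alone and 2.09 with upper-quartile factors (2.22 with TMM), and CPT1A in TCDD minus BPA was 0.065 with upper-quartile factors. CPT2 in BPA was -0.33 without the filter on low counts. CPT2 in TCDD against PFOS was -0.35 in 8 libraries, -0.36 without the filter and -0.32 with upper-quartile factors, and SLC25A20 in TCDD against TBTCl was -0.86 in 8 libraries. Leaving out single libraries gave -0.39 to -0.25 for CPT2 in BPA, -0.40 to -0.27 for CPT2 in TCDD against PFOS and -1.04 to -0.67 for SLC25A20 in TCDD against TBTCl. All genes called in CdCl2 were 4, against 0 in 8 libraries, 15 by DESeq2, 25 without the filter, 28 with the replicate block and 3 to 10 without single libraries. In PFOS they were 3, against 127 by DESeq2, 78 without the filter, 84 with the block, 23 with upper-quartile factors, 0 with H2O as the control and 0 to 2 without single libraries. In TBTCl they were 27, against 1 in 8 libraries, 250 by DESeq2, 9 with library size alone, 111 without the filter, 179 with the block, 13 with H2O as the control and 5 to 160 without single libraries. Between the vehicles DESeq2 called 1, against 0. In TCDD, where the numbers did not pair, the replicate block called 2722 genes, against 1743. List genes up in TBTCl were 1, against 0 in 8 libraries, with library size alone, with upper-quartile factors and with H2O as the control, 3 without the filter, 6 by DESeq2, 6 with the block and 0 to 5 without single libraries. List genes up in TCDD were 7 to 10 and list genes down in BPA 10 to 17 without single libraries. The replicate block changed no call of a shuttle gene. Depth limits CPT1B and CPT1C, whose counts were 3 to 35 and 1 to 8 per library.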
